A study of Mus musculus with 14 samples.

Results

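The data describe the CA3 subregion of the mouse hippocampus after enzymatic dissociation, set against CA3 tissue that was homogenised directly. The comparison was formed from the column names of the deposited gene count table, which assign 4 of the 14 libraries to CA3. Of these, 2 were controls and 2 were dissociated, with the replicate numbers 1 and 4 in each group. All 22485 genes of the table were examined, and 13063 had enough counts to be tested. The animal was a C57BL/6 mouse, listed as wild type. The authors' sample sheet names a single animal, date and sequencing job, so that p-values measure how far tissue pieces of 1 mouse differ and not how far animals differ. Control tissue went straight into RNA isolation. Dissociated tissue was held for 75 min at room temperature with the protease mixture pronase (1 mg/ml in artificial cerebrospinal fluid) and was then vortexed, spun, triturated in fluid with 1% fetal bovine serum and passed to the same isolation kit. The other 10 libraries came from CA1 and from the dentate gyrus (DG) under the same pair of treatments.

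CA3 holds pyramidal neurons that receive mossy fibre input from dentate granule cells and send axons to CA1. Its tissue also holds oligodendrocytes, which wrap axons in myelin, microglia, which are the resident macrophages of the brain, astrocytes, interneurons and vessels. Protease digestion and trituration free cell bodies from processes and matrix, and handling of live tissue is known to induce immediate early genes, which are transcribed within minutes of a stimulus without new protein synthesis.

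Counts per library were 1974845 and 2352153 in CA3 control 1 and 4, and 2498914 and 1193153 in CA3 dissociated 1 and 4. CPM values of genes and lists are counts scaled to a common library total with TMM factors. A count of 3 was worth 1.52, 1.28, 1.20 and 2.51 CPM before these factors, in the same order. At the depth of the shallowest library, 14347 and 14071 genes were expected to have a count in the controls, against 13572 and 12987 in the dissociated libraries. The 100 most abundant genes took 17.3% and 20.5% of counts in the controls and 25.6% and 26.5% after dissociation.

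The region labels were checked with marker genes of the pyramidal cell fields, and the libraries numbered 1 stood apart. The summed level of 8 CA1 pyramidal cell markers was 2607 CPM in CA3 control 1 and 1927 CPM in its dissociated counterpart, against 987 CPM in CA3 control 4 and 311 CPM in CA3 dissociated 4. CA1 controls held 3228 to 3602 CPM of the same genes and DG controls 154 to 191 CPM. Fibcd1, a marker of dorsal CA1, was at 829 and 272 CPM in the controls 1 and 4, at 735 CPM in dissociated 1 and at 0 CPM in dissociated 4. All 8 CA1 markers were higher in both libraries numbered 1 than in both numbered 4. Wfs1, another CA1 marker, stood at 178 and 142 CPM in the libraries numbered 1, above the 118 CPM of control 4 and 19.5 CPM of dissociated 4 but well below the 540 to 959 CPM of CA1 controls.

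Most CA3 markers showed the opposite order. The mean log2 CPM of the list was 5.37 in control 1 and 5.56 in dissociated 1, close above the 4.95 to 5.01 of CA1 controls, and 6.75 and 7.23 in control 4 and dissociated 4. Bok, enriched in CA3 pyramidal cells, stood at 18.9 and 25.5 CPM in the libraries numbered 1, and at 133 and 470 CPM in control 4 and dissociated 4. Grik4, which encodes a kainate receptor subunit abundant in CA3, was at 22.8 and 45.6 CPM in the libraries numbered 1 and at 125 and 179 CPM in those numbered 4. Nectin3, Npy2r, Cdh24 and Spock1 had the same order. Dkk3 had the reverse, at 761 and 648 CPM in the libraries numbered 1 and 528 and 471 CPM in those numbered 4, and Trps1 overlapped. Across genes, CA3 control 1 correlated with the CA1 controls at r = 0.921 to 0.946 and with CA3 control 4 at r = 0.916. The libraries labelled CA3 and numbered 1 thus carried a higher summed level of CA1 markers than those numbered 4, and list medians below are given for both numbers. CA1 dissociated 3 and DG control 2, which enter the effects of their labelled regions and help set the spread in the fit, had CA3 marker means of 7.26 and 6.86.

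**Figure D1:**
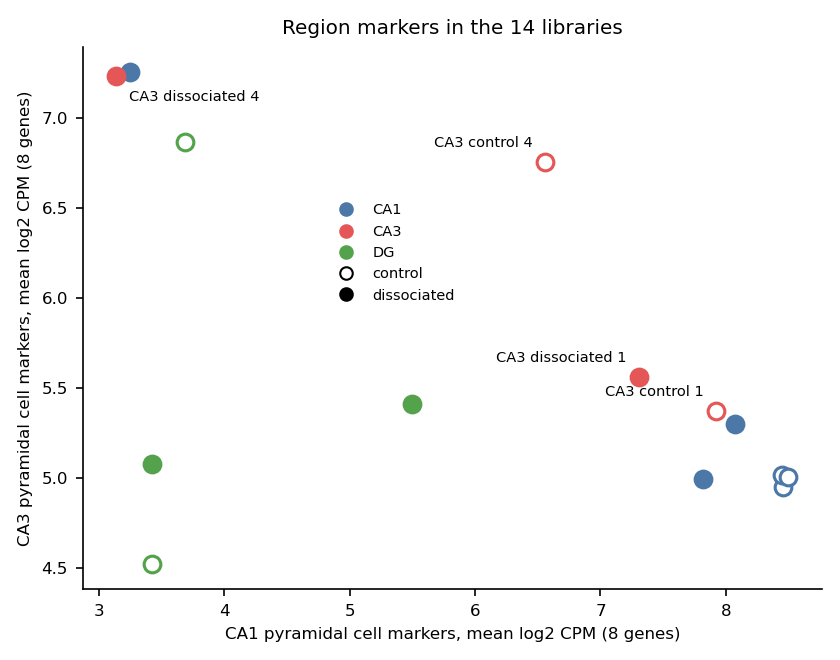
Mean log2 CPM of CA1 markers (horizontal axis) and CA3 markers (vertical axis) in each of the 14 libraries, 1 point per library, coloured by region, open for control and filled for dissociated. CA3 control 1 and CA3 dissociated 1 lie near the CA1 libraries other than CA1 dissociated 3, at CA3 marker means of 5.37 and 5.56. CA3 control 4 and CA3 dissociated 4 lie at 6.75 and 7.23, and CA1 dissociated 3 at 7.26.

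CA2 markers, which label the narrow field between CA3 and CA1, differed as widely. Their summed level was 186 and 845 CPM in the controls 1 and 4 and 360 and 152 CPM in dissociated 1 and 4. Rgs14, a regulator of G protein signalling enriched in CA2, was at 134 and 365 CPM in the controls and at 199 and 28.8 CPM after dissociation. Pcp4, a calmodulin-binding protein of CA2 cells, was at 3.40 and 77.5 CPM in the controls and at 34.1 and 0 CPM after dissociation. The groups overlapped for both genes, and the differences within number 1 and within number 4 had opposite signs. The part of tissue composition in the treatment differences below was not tested.

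No gene passed the test between dissociated and control CA3. With edgeR's quasi-likelihood test and Benjamini-Hochberg adjustment, 0 of 13063 genes (0%) were higher and 0 (0%) were lower at an adjusted p under 0.05, and the smallest adjusted p was 1. DESeq2 and limma-voom also called 0. At an unadjusted p under 0.05, 333 genes (2.55%) were higher and 190 (1.45%) lower. Both dissociated libraries lay above both controls for 2047 genes (15.7%) and below both for 2373 genes (18.2%). Counts of list members above or below both controls are to be read against these shares. An exact permutation of 2 against 2 libraries cannot go below p = 0.333. Values below therefore describe 4 libraries, and no gene is called changed.

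The differences within the 2 numbers had little in common over all genes. The difference, in log2 CPM of dissociated minus control, had an SD over genes of 0.87 within number 1 and 1.25 within number 4. The medians were close to 0, at -0.04 and -0.05. Within both numbers 2986 genes (22.9%) were above 0 and 3641 (27.9%) were below 0. Against this spread a few gene groups lay in the upper right of both differences together.

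**Figure D2:**
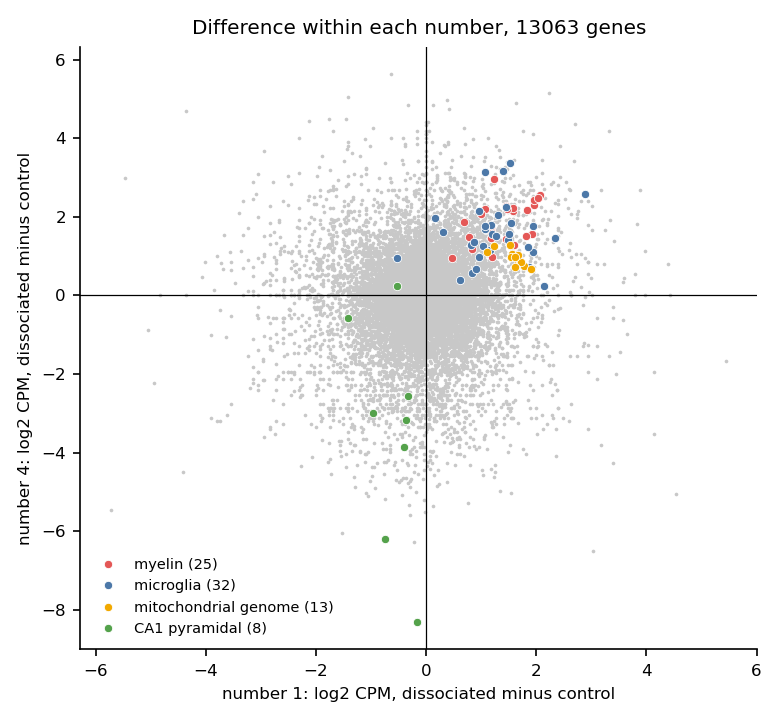
Difference in log2 CPM, dissociated minus control, within number 1 (horizontal axis) and within number 4 (vertical axis), 1 point per gene for all 13063 tested genes, with 4 gene lists coloured. All 25 myelin and 13 mitochondrially encoded genes lie above 0 on both axes, and the CA1 pyramidal markers reach far below 0 within number 4.

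Genes of mature oligodendrocytes and myelin were higher throughout. All 25 members were tested, all 25 lay above both controls in both dissociated libraries, and 20 had an unadjusted edgeR p under 0.05 with higher values, none with lower. Their summed level was 4486 and 4444 CPM in the controls and 14215 and 15930 CPM after dissociation. The median log2 fold change was 1.66 (range 0.75 to 2.34), with median differences of 1.45 within number 1 and 1.86 within number 4, against -0.05 for all genes. The fitted median was 1.90 without both libraries numbered 1 and 1.49 without both numbered 4. In bulk tissue, more cells of a type and more RNA per cell cannot be told apart.

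Mbp, which encodes myelin basic protein, was at 1292 and 1347 CPM in controls 1 and 4 and at 4930 and 3972 CPM in dissociated 1 and 4. The controls lay close together, and the dissociated libraries did not overlap with them. Trf encodes transferrin, the iron carrier made by oligodendrocytes, and was at 213 and 219 CPM in the controls and 758 and 994 CPM after dissociation (log2 fold change 2.02, SE 0.46, edgeR adjusted p = 1). Its gene lies on chromosome 9 at 103204001 to 103230444 on the minus strand (GRCm38, GENCODE M21). Cnp, a phosphodiesterase of uncompacted myelin, was at 157 and 153 CPM against 474 and 680 CPM (log2 fold change 1.89, SE 0.49).

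Other myelin genes gave the same picture over a wide range of abundance. Mog, a surface glycoprotein of the outer myelin sheath, was at 27.7 and 22.5 CPM in the controls and 119 and 136 CPM after dissociation, with the highest fold change of the list (log2 2.34, SE 0.65). Mag, an adhesion protein of the inner sheath, was at 110 and 127 CPM against 430 and 635 CPM. Mobp, a basic myelin protein, was at 543 and 540.5 CPM against 1905 and 1544 CPM. Fa2h, the hydroxylase that makes the 2-hydroxylated fatty acids of myelin lipids, was at 18.0 and 18.8 CPM against 72.8 and 105 CPM. The lowest fold change was that of Opalin, a myelin membrane protein, at 15.5 and 15.4 CPM in the controls and 21.8 and 30.7 CPM after dissociation (log2 0.75, SE 1.05).

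Oligodendrocyte precursor genes were higher mainly within number 4. Of 10 tested, 7 lay above both controls in both dissociated libraries and 5 had an unadjusted edgeR p under 0.05 with higher values. The median log2 fold change was 1.32, with medians of 0.45 within number 1 and 1.92 within number 4. Pdgfra, the growth factor receptor that marks precursors, was at 27.7 and 44.2 CPM in the controls and at 86.8 and 158 CPM after dissociation. Olig1, a transcription factor of the lineage, was at 105 and 99.2 CPM against 269 and 441 CPM (log2 fold change 1.79, SE 0.47). Sox10, a transcription factor shared by precursors and mature cells, was at 39.8 and 25.8 CPM against 99.5 and 122 CPM. All 3 genes were among the 7 with higher values in both dissociated libraries than in either control.

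Microglia markers were higher in nearly every member. All 32 were tested, 31 lay above both controls in both dissociated libraries, and 17 had an unadjusted edgeR p under 0.05 with higher values, none with lower. Summed, they were at 633 and 766 CPM in the controls and at 1610 and 2553 CPM after dissociation. The median log2 fold change was 1.47 (range 0.54 to 2.85), with medians of 1.19 within number 1 and 1.53 within number 4. Without both libraries numbered 1 the fitted median was 1.56, and without both numbered 4 it was 1.28.

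Csf1r, the receptor on which microglial survival depends, was at 108 and 100 CPM in the controls and at 246 and 352 CPM after dissociation (log2 fold change 1.52, SE 0.41). Cx3cr1, the fractalkine receptor, was at 45.6 and 40.4 CPM against 89.2 and 181 CPM. Ctss, a lysosomal cysteine protease of macrophages, was at 48.1 and 52.1 CPM against 142 and 190 CPM. In these 3 genes the control values were within a narrow band and dissociated 4 was the highest library.

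Mpeg1 encodes perforin-2, a pore-forming protein of macrophages, and had the smallest p of all genes named by rule. It was at 25.7 and 15.0 CPM in the controls and at 69.5 and 142 CPM after dissociation (log2 fold change 2.37, SE 0.49, edgeR adjusted p = 1). It lies on chromosome 19 at 12460779 to 12465283 on the plus strand (GRCm38). Laptm5, a lysosomal membrane protein of blood-derived cells and microglia, was at 38.4 and 52.9 CPM against 107 and 253 CPM (log2 fold change 1.97, SE 0.49). Both genes were highest in dissociated 4.

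C1qa, which encodes a chain of the complement initiator C1q, was at 22.8 and 41.7 CPM in the controls and at 119 and 117 CPM after dissociation. C1qb, another chain, was at 31.6 and 46.3 CPM against 77.3 and 134 CPM. Cd68, a lysosomal glycoprotein of phagocytes, had the highest fold change of the list (log2 2.85, SE 0.92), from 0.971 and 5.83 CPM to 12.7 and 39.0 CPM, with the value in control 1 under the level of 3 counts.

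Other members had smaller fitted differences. P2ry12, a purine receptor of homeostatic microglia, was at 22.3 and 19.6 CPM in the controls and at 34.5 and 26.0 CPM after dissociation (log2 fold change 0.54, SE 0.56). Tmem119, a membrane protein of resident microglia, was at 17.0 and 27.1 CPM against 33.7 and 53.9 CPM (log2 fold change 0.97, SE 0.59). Trem2, a lipid-sensing receptor, was at 7.77 and 16.3 CPM against 37.4 and 19.5 CPM. Whether these genes, picked after their values were seen, differed from the rest of the list was not tested. P2ry6, another purine receptor, was the single marker whose groups overlapped, at 0.971 and 2.92 CPM against 0.411 and 6.51 CPM.

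Peripheral leukocyte markers stayed at the edge of detection. Only 2 of 15 had enough counts to be tested, and their sum over the list was 6.31 and 12.1 CPM in the controls and 8.22 and 12.1 CPM after dissociation, so the groups overlapped. Red blood cell markers summed to 53.4 and 170 CPM in the controls and to 96.6 and 180 CPM after dissociation, also overlapping.

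Cytokine, chemokine and NF-kB target genes were higher in most members. Of 17 tested, 11 (64.7%) lay above both controls in both dissociated libraries, against 15.7% of all genes. An unadjusted edgeR p under 0.05 was found for 7 with higher values and none with lower. The median log2 fold change was 1.37, with medians of 0.73 within number 1 and 1.68 within number 4, and it was 0.64 without dissociated 4. The values of this list moved with those of the microglia markers, and the part of microglial content in them was not tested.

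Tnf, the inflammatory cytokine, was at 5.34 and 4.58 CPM in the controls and at 20.6 and 23.2 CPM after dissociation. Tlr2, a receptor for bacterial lipoproteins, was at 3.40 and 6.25 CPM against 24.7 and 32.5 CPM. Ccl3, a chemokine of activated microglia, was at 10.2 and 12.5 CPM against 23.0 and 64.1 CPM. Csf1, a ligand of Csf1r, was at 7.28 and 17.9 CPM against 59.2 and 35.3 CPM. In each of the 4 genes both dissociated libraries were above both controls.

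Il1a, an interleukin-1 cytokine, was at 40.8 and 50.8 CPM in the controls and at 71.1 and 205 CPM after dissociation. Nfkbiz, a nuclear NF-kB cofactor, was at 36.9 and 35.0 CPM against 48.9 and 208 CPM. Most of the difference in these genes came from dissociated 4. Socs3, a feedback inhibitor of cytokine signalling, was at 35.9 and 19.6 CPM against 66.6 and 77.2 CPM, and Nfkbia, the inhibitor that NF-kB itself induces, at 24.8 and 21.7 CPM against 41.5 and 34.4 CPM.

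Immediate early and fast stress genes included several with higher values. AP-1, the factor after which the list is named, is a dimer of Fos and Jun family proteins. Of 22 list members tested, 12 (54.5%) lay above both controls in both dissociated libraries, against 15.7% of all genes. None lay below both, and 7 had an unadjusted edgeR p under 0.05 with higher values. The median log2 fold change was 0.76 (range -1.35 to 2.34), with medians of 0.48 within number 1 and 1.28 within number 4. It was 1.32 without both libraries numbered 1 and 0.52 without both numbered 4.

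Fos transcription answers to cyclic AMP and calcium in part through CREB, which binds the element TGACGTCA or its core TGACG. The promoter table of RefSeq (GRCm38.p6, 250 bases before each start) held 18 of the list's members. The full element was found in 3 of these 18 (16.7%), namely Maff, Btg2 and Dusp1, and in 549 of 27025 genes in the table (2.03%), or 588 of 32851 promoters (1.79%). The core on either strand was in 9 of the 18 (50%) and in 6228 of all genes (23%), or 6837 promoters (20.8%). The 4 windows below show where these letters lie, with the motif in capitals and each sequence read 5′ to 3′ on the gene's strand. The first 2 hold the core only and span the 100 bases before the start, at chr12:85473790-85473889 (plus strand) for Fos and chr7:19310046-19310145 (minus strand) for Fosb. The other 2 hold the full element, at chr17:26508593-26508652 for Dusp1 and chr1:134079296-134079355 for Btg2, both on the minus strand. A match is a match of letters and was not tested as a binding site.
Fos: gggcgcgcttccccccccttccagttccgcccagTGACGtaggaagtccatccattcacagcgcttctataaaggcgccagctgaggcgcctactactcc
Fosb: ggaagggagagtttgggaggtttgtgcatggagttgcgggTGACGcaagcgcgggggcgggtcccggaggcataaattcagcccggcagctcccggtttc
Dusp1: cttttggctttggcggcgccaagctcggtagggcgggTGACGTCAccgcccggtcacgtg
Btg2: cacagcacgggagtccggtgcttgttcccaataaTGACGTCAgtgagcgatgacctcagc

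Fos was at 295 and 179 CPM in the controls and at 509 and 869 CPM after dissociation (log2 fold change 1.54, SE 0.38, edgeR adjusted p = 1). Jun was at 206 and 138 CPM against 423 and 541 CPM (log2 fold change 1.49, SE 0.39). Fosb, which can replace Fos in the dimer, was at 204 and 205 CPM against 415 and 832 CPM. All 3 genes had their highest value in dissociated 4 and no overlap between groups. The motif in the Fos window above begins 66 bases before the start, and that in the Fosb window 60 bases before it.

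Other members also had higher values in both dissociated libraries. Atf3, a stress-induced transcription factor, was at 28.2 and 32.1 CPM in the controls and at 53.5 and 137 CPM after dissociation. Maff, a small Maf factor, was at 8.74 and 10.8 CPM against 18.9 and 82.7 CPM. Ier2, an early response gene, was at 18.9 and 26.3 CPM against 58.0 and 57.6 CPM. Junb, another Jun family member, was at 194 and 170 CPM against 236 and 302 CPM. The windows above also show Dusp1, a phosphatase that switches off MAP kinases, and Btg2, an antiproliferative cofactor. Dusp1 was at 98.6 and 58.8 CPM against 136 and 141 CPM, and Btg2 at 83.0 and 41.3 CPM against 109 and 93.0 CPM.

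Genes that follow neuronal firing had no common direction. Of 19 tested, 2 (10.5%) lay above both controls in both dissociated libraries and 5 (26.3%) lay below both, against 15.7% and 18.2% of all genes, and the median log2 fold change was -0.09, at -0.32 within number 1 and 0.52 within number 4. Arc, a regulator of synaptic AMPA receptors, was at 349 and 275 CPM in the controls and at 229 and 228 CPM after dissociation. Npas4, a transcription factor induced by calcium influx, was at 184 and 65.8 CPM against 40.3 and 61.4 CPM. Scg2, a granin of dense-core vesicles, was at 243 and 189 CPM against 169 and 72.5 CPM. Egr1, induced by both activity and stress, was at 627 and 345 CPM against 617 and 691 CPM and overlapped. Egr2, a zinc finger factor of the same family, was at 13.6 and 11.3 CPM against 33.3 and 43.7 CPM and was among those above.

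Heat shock and chaperone genes as a group were near 0. Of 18 tested, 3 (16.7%) lay above both controls and 5 (27.8%) below both, against 15.7% and 18.2% of all genes. The median log2 fold change was 0.01, at 0.08 within number 1 and -0.10 within number 4. Hspa1a, the inducible Hsp70, was among those above, at 66.0 and 46.7 CPM in the controls and 125 and 96.7 CPM after dissociation. Dnajb1, its co-chaperone, was at 63.6 and 75.0 CPM against 158 and 86.5 CPM. The 14 unfolded protein response genes tested had a median of 0.02, at 0.26 within number 1 and -0.02 within number 4. The 22 hypoxia and glycolysis genes had a median of -0.09, at 0.20 within number 1 and -0.36 within number 4.

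**Figure D3:**
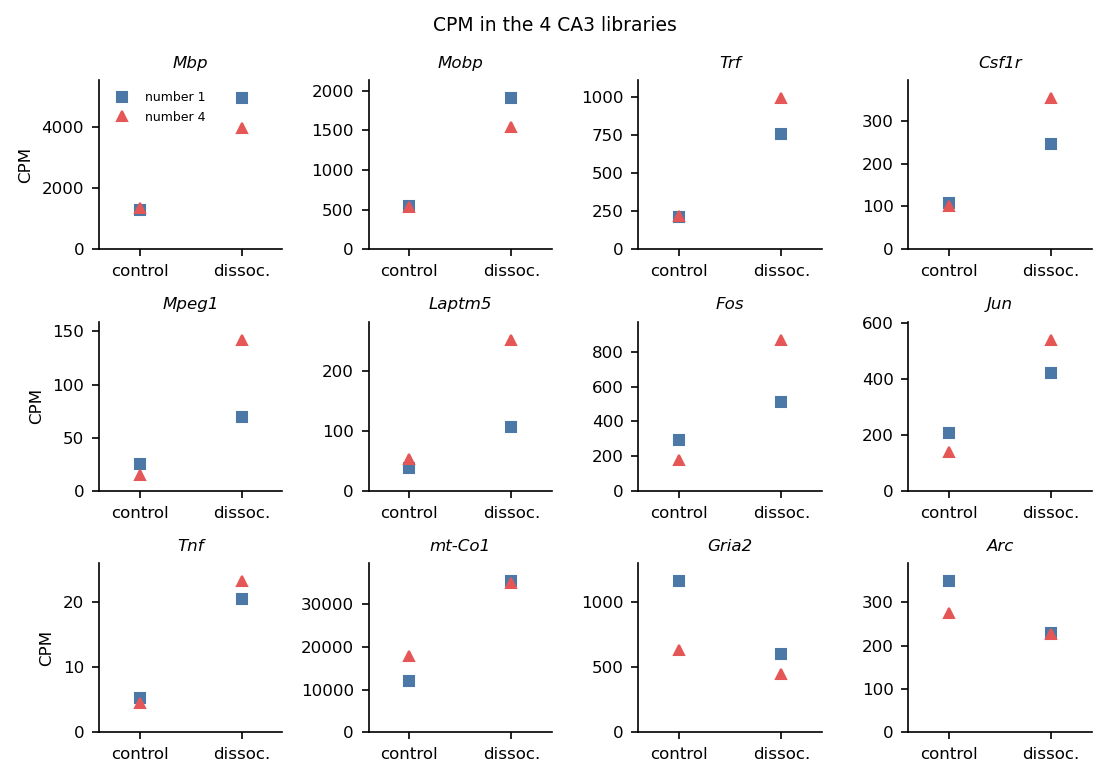
CPM of 12 genes in the 4 CA3 libraries, 1 panel per gene with its own linear axis from 0, squares for number 1 and triangles for number 4. The first 10 genes, of myelin, microglia, AP-1, cytokine and mitochondrial groups, have both dissociated libraries above both controls, and Gria2 and Arc have both below, with Arc at 349 and 275 CPM in the controls and 229 and 228 CPM after dissociation.

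Transcripts of the mitochondrial genome were higher as a block. These 13 genes encode subunits of the respiratory chain and ATP synthase. All 13 lay above both controls in both dissociated libraries and all 13 had an unadjusted edgeR p under 0.05. Their share of all counts was 4.57% and 7.07% in the controls and 13.1% and 11.7% after dissociation. The fold changes ranged only from 1.10 to 1.39 on the log2 scale around a median of 1.24, with medians of 1.61 within number 1 and 0.97 within number 4. mt-Co1, a cytochrome oxidase subunit, was at 12080 and 17851 CPM in the controls and at 35366 and 35015 CPM after dissociation. mt-Nd4l, a small subunit of complex I, was at 548 and 803 CPM against 1580 and 1964 CPM.

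Nuclear genes of the same complexes did not follow. Of 73 nuclear oxidative phosphorylation genes tested, 4 (5.48%) lay above both controls and 3 (4.11%) below both. Both shares were under the 15.7% and 18.2% of all genes, so most of these genes overlapped between groups. Of the 73, 0 had an unadjusted edgeR p under 0.05, and the median log2 fold change was -0.03. Their median was 0.48 within number 1 and -0.39 within number 4. A difference between the 2 groups of genes was not tested.

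Cytosolic ribosomal protein genes lay modestly above the controls within number 1. Of 75 tested, 39 (52%) lay above both controls in both dissociated libraries, against 15.7% of all genes. None lay below both, while 1 had an unadjusted edgeR p under 0.05. The median log2 fold change was 0.40, at 0.67 within number 1 and 0.10 within number 4. Many ribosomal protein genes have near-identical pseudogenes between which estimated counts can be split, so single members are uncertain.

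Lysosomal genes were higher in the majority. Of 25 tested, 16 (64%) lay above both controls and 1 (4%) below both, against 15.7% and 18.2% of all genes. An unadjusted edgeR p under 0.05 with higher values was found for 8. The median log2 fold change was 0.54, at 0.79 within number 1 and 0.60 within number 4. Npc2, a cholesterol carrier of the lysosome, was at 17.5 and 25 CPM in the controls and at 47.7 and 136 CPM after dissociation. Lamp1, a lysosomal membrane protein, was at 173 and 200 CPM against 333 and 470 CPM. Ctsd, an aspartic protease, was at 219 and 311 CPM against 414 and 600 CPM. Some members, among them Cd68, Ctss and Laptm5, also stand in the list of microglia markers.

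Astrocyte markers divided the numbers. All 18 tested had a fold change above 0, as did 6041 of all genes (46.2%). Only 9 (50%) lay above both controls in both dissociated libraries, against 15.7% of all genes. Their sum was 5833 and 5422 CPM in the controls and 7199 and 14365 CPM after dissociation, and the median difference was 0.17 within number 1 and 1.36 within number 4. Without both libraries numbered 4 the fitted median was 0.21, against 0.94 with all libraries. Dissociated 4 thus carried most of the difference.

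Glul, the glutamine synthetase of astrocytes, was at 777 and 996 CPM in the controls and at 1381 and 2649 CPM after dissociation. Sox9, an astrocyte transcription factor, was at 29.6 and 7.50 CPM against 53.9 and 130 CPM. Apoe, a lipid carrier of astrocytes and microglia, was at 584 and 654 CPM against 991 and 1486 CPM. In these 3 genes the groups did not overlap.

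Slc1a2, the main glutamate transporter of astrocytes, was at 1681 and 1425 CPM in the controls and at 1484 and 4279 CPM after dissociation. Slc1a3, the other astrocytic glutamate transporter, was at 313 and 240 CPM against 241 and 595 CPM. Gfap, the intermediate filament protein, was at 289 and 205 CPM against 257 and 531 CPM. All 3 were lower within number 1 and higher within number 4. Aqp4, the water channel of astrocyte endfeet, was at 34.0 and 40.4 CPM against 45.2 and 151 CPM.

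Cholesterol synthesis genes, which oligodendrocytes and astrocytes use heavily, likewise differed between numbers, with a median of -0.06 within number 1 and 1.00 within number 4. Of 18 tested, 6 (33.3%) lay above both controls and 1 (5.56%) below both, against 15.7% and 18.2% of all genes. Idi1, an isomerase of the pathway, was at 32.1 and 25.8 CPM in the controls and at 50.2 and 98.5 CPM after dissociation.

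Vascular markers had no common direction. Of 15 endothelial markers tested, 2 (13.3%) lay above both controls and 1 (6.67%) below both, against 15.7% and 18.2% of all genes. The median was -0.73 within number 1 and 0.41 within number 4. The 6 pericyte and smooth muscle markers tested gave -0.97 and 1.5. Rgs5, a pericyte marker, was at 44.2 and 68.3 CPM in the controls and at 106 and 126 CPM after dissociation.

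Neuronal gene lists had no uniform direction. Of 12 pan-excitatory markers tested, 0 lay above both controls and 2 (16.7%) below both, against 18.2% of all genes below both. Their median log2 fold change was -0.24, at -0.27 within number 1 and -0.35 within number 4. It ranged from -0.36 to -0.06 on leaving out CA3 libraries singly or as a numbered pair. Fold changes were above 0 in 3 of 12 pan-excitatory markers, 7 of 22 glutamate receptor subunits, 2 of 12 GABA-A subunits and 12 of 51 ion channel genes. They were above 0 in 4 of 13 interneuron markers, 15 of 36 adhesion receptors, 11 of 24 presynaptic and 8 of 23 postsynaptic genes. The same held for 5 of 8 CA3 markers and 46.2% of all genes. Dendritically localised mRNAs had 14 of 19 fold changes above 0 and a median of 0.27, at -0.33 within number 1 and 0.68 within number 4. The 8 CA3 markers tested had a median of 0.24, at 0.02 and 0.27. The sum of the pan-excitatory markers overlapped, at 9847 and 8796 CPM in the controls and 7739 and 11658 CPM after dissociation. Of 22 glutamate receptor subunits, 5 (22.7%) lay below both controls and 2 (9.09%) above both, against 18.2% and 15.7% of all genes. Their median was -0.29, at -0.54 within number 1 and -0.23 within number 4. It was 0.19 without control 1, -0.45 without control 4 and -0.23 without both libraries numbered 1. Gria2, the AMPA receptor subunit that limits calcium entry, was at 1164 and 632 CPM in the controls and at 604 and 449 CPM after dissociation (log2 fold change -0.77, SE 0.36). Gria1, another AMPA receptor subunit, was at 1869 and 1164 CPM against 1378 and 708 CPM and overlapped. Gria1 was higher in both libraries numbered 1 than in both numbered 4. Gria2 had this order only within each treatment. Grm3, a metabotropic receptor that astrocytes also express, was among those above, at 35.4 and 29.6 CPM against 58.4 and 85.5 CPM.

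Medians of neuronal surface protein lists moved to or past 0, or closer to it, without control 1. Without both libraries numbered 1 the medians of GABA-A subunits, ion channels and adhesion receptors were -0.61, -0.06 and 0.05. Without control 4 they were -0.58, -0.49 and -0.40. The cause of these shifts was not tested. GABA-A receptor subunits had a median log2 fold change of -0.49, at -0.35 within number 1 and -0.62 within number 4, and -0.11 without control 1. Of 12 tested, 3 (25%) lay below both controls and 1 (8.33%) above both, against 18.2% and 15.7% of all genes. Of 51 voltage-gated ion channel genes tested, 11 (21.6%) lay below both controls and 5 (9.8%) above both. Their median was -0.31, at -0.36 within number 1 and -0.06 within number 4, and 0.02 without control 1. Of 36 adhesion and guidance receptors, 7 (19.4%) lay below both and 5 (13.9%) above both. Their median was -0.28, at -0.47 within number 1 and 0.03 within number 4, and 0.16 without control 1. Presynaptic release genes had a median of -0.02 over 24, at 0.03 within both numbers. Postsynaptic scaffold genes had a median of -0.08 over 23, at -0.43 within number 1 and 0.20 within number 4.

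Of 13 interneuron markers, 4 (30.8%) lay below both controls and 3 (23.1%) above both, against 18.2% and 15.7% of all genes. The medians were 0.07 within number 1 and -0.24 within number 4. Sst, the peptide somatostatin of dendrite-targeting interneurons, was at 252 and 173 CPM in the controls and at 114 and 32.5 CPM after dissociation. Htr3a, a serotonin-gated channel of another interneuron class, was at 7.28 and 14.2 CPM against 34.5 and 56.7 CPM. The 2 genes stood at opposite sides of their controls in both numbers.

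Genes of extracellular proteases and their inhibitors were mixed, with 5 of 21 (23.8%) above both controls and 5 (23.8%) below both. These shares were 15.7% and 18.2% over all genes. The medians were 0.19 within number 1 and 0.28 within number 4. Cst3, the protease inhibitor cystatin C, was at 618 and 772 CPM in the controls and at 1158 and 1580 CPM after dissociation. Adamts4, a protease that cuts matrix proteoglycans and is made by oligodendrocytes, was at 33.5 and 15.0 CPM against 60.0 and 106 CPM. Plau, the urokinase plasminogen activator, was at 7.28 and 19.2 CPM against 31.3 and 46.5 CPM. Plat, the tissue plasminogen activator of neurons, was at 59.7 and 64.6 CPM against 30.8 and 56.7 CPM.

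**Figure D4:**
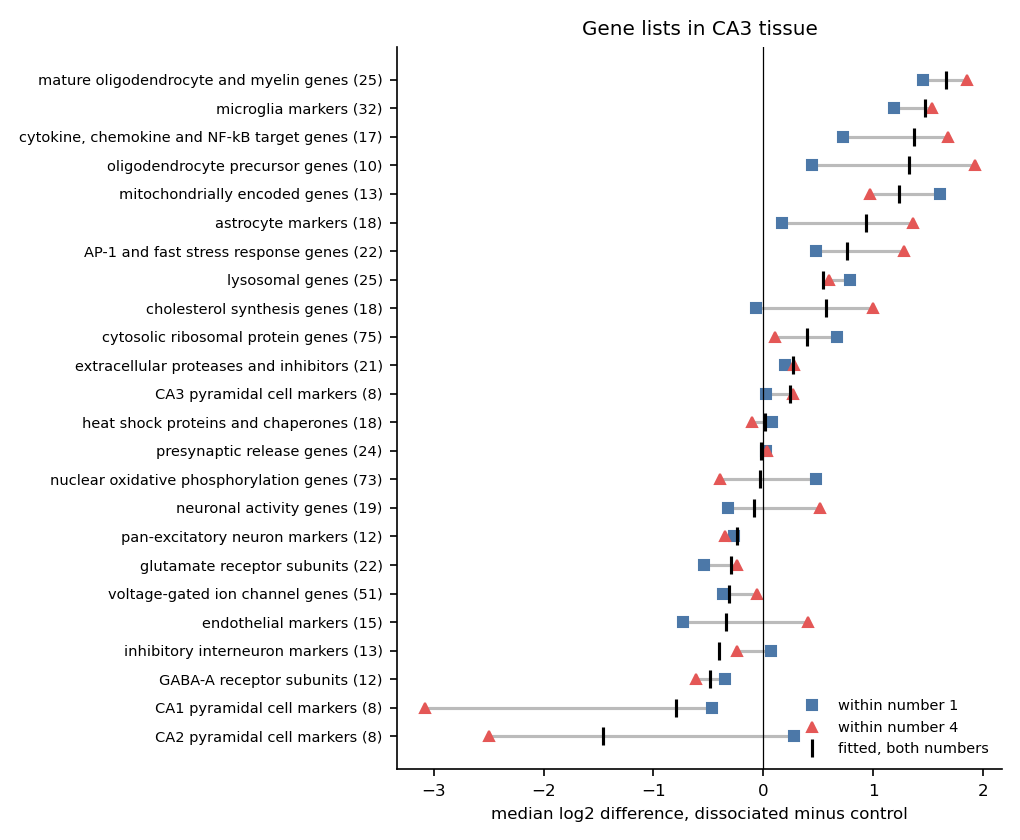
Median log2 difference, dissociated minus control, of 24 gene lists in CA3 (horizontal axis), with squares for number 1, triangles for number 4 and ticks for the fit of both, and the number of genes tested in brackets. Myelin, microglia and mitochondrially encoded genes are above 0 in both numbers (1.45 and 1.86 for myelin), astrocyte and cholesterol genes mainly in number 4, and CA1 and CA2 markers are far below 0 in number 4.

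Genes were also named by rule, as the 12 smallest p in each direction among those with a mean of at least 5 CPM, the same direction in both numbers and no overlap between groups. On the higher side 1852 genes met these conditions and on the lower side 1989. The 12 higher genes were Mpeg1, Trf, Tln1, Fos, Laptm5, Padi2, Cnp, Tgfa, Jun, Olig1, Rapgef4 and Zfhx3, of which 5 belong to the microglia and oligodendrocyte lineage lists. The 12 lower genes, of which 0 belong to these lists, were Gins2, Kpna2, Wdr78, Cxcl12, Phykpl, Dgkh, Tubgcp4, Cfap44, Dnah9, Zdhhc23, Pcdhga3 and Lct. The lists held 32 microglia, 25 myelin and 10 precursor genes of the 13063 tested. They were chosen with earlier results of these data known, so these counts are no independent support.

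Among higher genes outside the lists, Tln1 encodes talin, which links integrins to actin, and was at 38.8 and 40.8 CPM in the controls and at 88.0 and 165 CPM after dissociation. Padi2, a protein-citrullinating enzyme, was at 22.3 and 10.8 CPM against 63.3 and 109 CPM. Rapgef4, the cyclic AMP sensor Epac2 of neurons, was at 355 and 528 CPM against 892 and 1801 CPM (log2 fold change 1.61, SE 0.42). Tgfa, a ligand of the epidermal growth factor receptor, was at 12.6 and 8.33 CPM against 35.8 and 71.6 CPM. Zfhx3, a homeobox factor, was at 7.28 and 6.67 CPM against 16.0 and 80.0 CPM, so that dissociated 4 set its fold change.

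The lower genes were mostly of low abundance. Gins2, a subunit of the GINS complex of DNA replication, had 92 and 89 counts in the controls, at 44.7 and 37.1 CPM, and 0 counts in both dissociated libraries. Against a floor of 3 counts over the dissociated group it was at least 51.5-fold lower. It lies on chromosome 8 at 120578633 to 120589304 on the minus strand (GRCm38). It also had 0 counts in DG control 2 and in every dissociated library of CA1 and DG except CA1 dissociated 1. Kpna2, a nuclear import receptor, was at 25.7 and 29.2 CPM in the controls and at 0 and 5.58 CPM after dissociation.

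Phykpl, a lyase of phosphohydroxylysine, had 48 counts in the controls and 2 after dissociation, a ratio of 20.5 (95% counting interval 5.67 to 169). Cfap44, a protein of motile cilia, had 50 and 3 counts, a ratio of 14.2 (4.87 to 69.0). These intervals cover counting error only. Cxcl12, a chemokine, was at 41.3 and 17.9 CPM against 0.411 and 9.30 CPM. Dgkh, a diacylglycerol kinase, was at 53.9 and 10.8 CPM against 6.17 and 2.79 CPM. Lct, used as a granule cell marker, was at 11.7 and 13.3 CPM against 2.06 and 2.79 CPM. Pcdhga3, a clustered protocadherin whose last exons are shared by its cluster, is uncertain because reads of these exons can be divided among its members.

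Transcript length was related to the difference within each number, in opposite directions. Genes were divided into quintiles by deposited transcript length, with median lengths from 1132 to 5786 bases. Within number 1 the median difference went from 0.34 in the shortest quintile to -0.38 in the longest. Within number 4 it went from -0.24 to 0.18. Across the 13063 genes, Spearman's rho with length was -0.311 within number 1, 0.145 within number 4 and -0.0705 for the fit of both. Genes are not independent replicates, and the values describe these libraries. Ribosomal protein and nuclear oxidative phosphorylation genes, which have short transcripts, had higher median differences within number 1 than within number 4.

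**Figure D5:**
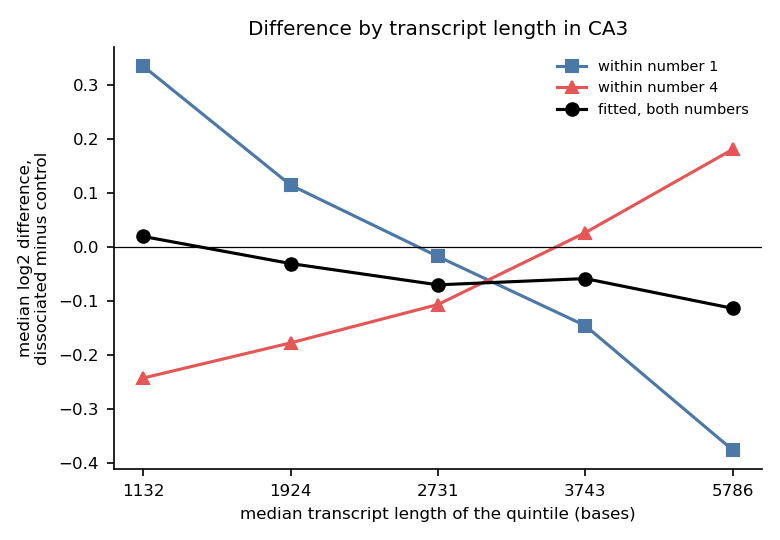
Median log2 difference, dissociated minus control, by quintile of transcript length (horizontal axis, median length in bases, evenly spaced), with squares for number 1, triangles for number 4 and circles for the fit of both. The line of number 1 descends from 0.34 to -0.38 and that of number 4 ascends from -0.24 to 0.18.

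The same contrast in the other subregions was set beside CA3 with a test of the difference. The treatment effect in CA3 minus that in CA1, tested by edgeR, called 0 genes, with 109 (0.834%) higher and 181 (1.39%) lower at an unadjusted p under 0.05. CA3 minus DG called 0 genes, with 1042 (7.98%) and 241 (1.84%). CA1 alone gave 25 genes higher (0.191%) and 0 lower, and DG alone 5 higher (0.0383%) and 16 lower (0.122%). DESeq2 called 0 for CA3 minus CA1 and 3 for CA3 minus DG. DG held 1 dissociated library of 65887 counts, and the count of CA3 minus DG was 119 without the 3 dissociated libraries under 500000 counts.

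The leading groups had medians above 0 in all 3 subregions. The myelin median was 1.66 in CA3, 2.30 in CA1 and 0.81 in DG. The microglia median was 1.47, 2.17 and 1.03, and that of mitochondrially encoded genes 1.24, 1.10 and 0.70. In DG the libraries overlapped for myelin, at 5061 and 2472 CPM in the controls and 11613 and 4072 CPM in dissociated 3 and 4. The DG mitochondrial share was 7.06% and 6.14% against 13.7% and 6.18%. DG microglia markers were higher after dissociation by summed CPM, at 565 and 677 against 1748 and 992. Their mean log2 CPM was not, at 3.59 and 3.91 against 3.32 and 3.85. Trf, with a log2 fold change of 2.02 in CA3, had 2.58 in CA1 (edgeR adjusted p = 0.0135) and 0.98 in DG, and its effect in CA3 minus CA1 was -0.56 (SE 0.58, edgeR adjusted p = 1.00). Mpeg1 had 2.29 in CA1 (edgeR adjusted p = 0.0305) against 2.37 in CA3, a difference of 0.08 (SE 0.62). For neither gene did the call in CA1 alone amount to a tested difference from CA3. Rapgef4, at 1.61 in CA3, was at 0.64 in CA1 and -0.21 in DG, with a difference from DG of 1.82 (SE 0.61, edgeR adjusted p = 0.355).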

How the data were processed

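RNA-seq of 14 hippocampal libraries was used, of which 4 were CA3. FastQC, cutadapt, kallisto and DESeq2 are named, without versions, in the submitters' processing notes. Build, annotation and strand were not given in the sources used here. Per the file headers, kallisto gave an estimated count and a TPM value for each transcript. The gene table deposited by the authors holds counts that equal these estimated counts summed by gene symbol and rounded, within 0.5. Effective length is also in the transcript tables deposited by the authors.

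Counts of 22485 genes were tested with edgeR 4.0.16 (R 4.3.3). filterByExpr on the 6 groups (minimum count 10, minimum total 15) left 13063 genes. Libraries were scaled with TMM, and a model with 1 mean per group over all 14 libraries (8 residual degrees of freedom) gave the CA3 contrast and its differences from CA1 and DG. The call threshold was a p of 0.05 after Benjamini-Hochberg adjustment. Log2 differences within a number used CPM with a prior count of 2. Alternatives included limma 3.58.1 and DESeq2 1.42.0. The script was tested on simulated data.

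Genes were named by the smallest p under fixed conditions and as members of 35 lists. The members and lists were chosen with earlier results of these data known. Marker lists were described by counts and medians, with no set test. Promoters are from RefSeq (GRCm38.p6) and coordinates from GENCODE M21 (GRCm38). Depth ran from 1193153 to 2498914 counts in CA3, and floors and intervals cover counting error only.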

Additional observations from a re-analysis of the deposited data

Results flagged for a closer look

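The cytosolic ribosomal protein genes stood out because the direction of their difference was opposite in 2 subregions. Their mean log2 CPM was higher after dissociation in CA3, by 0.37, with every dissociated library above every control, and lower in DG, at -0.29, with every dissociated library below every control. The effects differed by 0.659 on the log2 scale. This difference was not tested. It depended on the measure in DG, since by summed CPM the groups overlapped, with 12934 and 14471 CPM in the controls and 16701 and 10316 CPM in dissociated 3 and 4, and dissociated 3 held 65887 counts. In CA3 the median over these genes was 0.67 within number 1 and 0.10 within number 4.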

How the results depend on the processing

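The counts of called CA3 genes stayed at 0 higher and 0 lower under other scalings, DESeq2, limma-voom, a minimum of 5 CPM, the 4 CA3 libraries alone and TPM. Without the filter on low counts, 26 genes were higher and 3 lower, 14 differed between CA3 and CA1 and 72 between CA3 and DG. Leaving out 1 library at a time called 0 genes in either direction in CA3. Without CA1 dissociated 3 and DG control 2, 1 gene, Gins2, was lower, and 1 differed between CA3 and DG. CA3 minus DG gave 0 to 17 genes on leaving out 1 library, with 17 without DG dissociated 3 and 4 without DG dissociated 4, 119 without the dissociated libraries under 500000 counts, and 3 with DESeq2.

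With the replicate number as a block within regions, 20 genes were higher in CA3 (0.153%) and 2 lower, of which 8 were myelin genes and 3 AP-1 genes, 1 differed from CA1 and 31 from DG. With the block and the 4 CA3 libraries alone, 1 gene, Stox2, was higher. The labels do not say that equal numbers share tissue, so the libraries were treated as unpaired. Across genes the deviations of same-numbered libraries correlated at r = 0.0673. This value cannot decide the pairing, since noise in low counts also lowers such a correlation. CA1 and most CA3 markers showed the same order by number in both groups.

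Of 93 genes followed, 83 kept their direction under every alternative except the fit on TPM, in which the direction of single genes was not followed. The others reversed, with log2 fold changes on leaving out CA3 libraries singly or as a numbered pair from -2.09 to 1.69 for P2ry6 (-0.33 with limma-voom), -0.15 to 1.60 for Slc1a2, -0.34 to 1.32 for Slc1a3, -0.14 to 1.39 for Gfap, -0.67 to 2.25 for Grik4, -1.55 to 3.66 for Bok, -13.28 to 0.50 for Fibcd1, -4.03 to 0.19 for Mpped1, -3.64 to 0.60 for Rgs14 and -10.46 to 3.34 for Pcp4. The cause was not tested. Where an arm held 1 library, it was assumed to vary like the other groups. Depth limits genes near 3 counts, worth 1.20 to 2.51 CPM before TMM factors.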
